A study of Mus musculus with 6 samples.

Results

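Pancreatic islets are small clusters of hormone-secreting cells, and they carry a minority of mesenchymal cells along their capillaries and capsule. Pericytes wrap the capillary wall, stellate cells and fibroblasts lie between the endocrine cells and at the islet edge, and both can take on a contractile, matrix-secreting state in culture. The transcripts described here are 38 genes that mark these cells: receptors and surface proteins that identify them, proteins of their contractile apparatus, and proteins that they secrete into the extracellular matrix or that modify it. They were taken by gene name from a list, with collagens left out, and are 38 of 48397 genes in the count tables. All 38 had enough reads to be among the 23924 genes tested.

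The RNA came from isolated islets of wild-type C57B6 mice, of mixed cell types per the labels, which were rested overnight in serum-containing medium. The treated islets then received 500 ng/mL of recombinant mouse prolactin, the pituitary hormone to which beta cells respond in pregnancy, for 24 h, and the control islets received DMSO, the solvent control, for the same time. Each condition has 3 libraries of polyadenylated RNA. The labels do not say whether the replicates are separate animals or cultures, so a p-value speaks only of how these libraries vary, and that spread may be technical.

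Levels are CPM, a gene's read count scaled to one library total after TMM, and a change is the log2 ratio of prolactin over control with its standard error (SE). A gene passed the test when its adjusted p, over all genes tested, lay under 0.05 in edgeR's quasi-likelihood test. Because whole islets were sequenced, fewer cells of a type and less RNA per cell cannot be told apart.

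Total counts ranged from 230833584 to 264885071 in the prolactin libraries and from 264466143 to 530296257 in the control libraries. Beta-cell markers summed to 118606 to 123982 CPM in prolactin and 116582 to 142999 CPM in control libraries, so the labelled tissue shows in every library. Prolactin replicates 2 and 3 were closer to each other than any other replicate pair: the SD of their log2 ratio over 11590 genes was 0.0546, against 0.158 to 0.235 in the other pairs. The labels list them as 2 samples and their counts are not identical (chi-square 7.61 per degree of freedom), so both were kept. Whether they are separate islet preparations was not tested. For the members and the further mesenchymal genes that passed, results are also given with the pair averaged to 1 library. Control replicate 3 stood apart for the genes described here, as shown further on. Results for the members as a set, and for many but not all single genes, are given with and without it.

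As a group the mesenchymal transcripts were slightly more abundant in prolactin-treated islets, and a pair of them, Fn1 and Tns1, rose by the test. Of the 38 members, 2 passed the test upwards and 0 downwards, where 0.652% of all genes tested passed upwards, 0.104% downwards and 0.757% in either direction. With no adjustment, 19 members were higher and 0 lower at p under 0.05, against 7.78% and 6.68% of all genes. DESeq2 called 13 higher and 0 lower, where it called 4.10% of all genes higher and 1.60% lower, and limma-voom called 3 higher and 0 lower, against 0.652% and 0.0878%. The log2 change was above 0 in 37 of 38 members, as it was in 50.1% of all genes, and its median was 0.41 over the members and 0.00 over all genes tested. In 21 members all 3 prolactin libraries lay above all 3 control libraries, a pattern that 11.3% of all genes showed. In 0 members they lay below all controls, as in 10.4% of all genes. The members were chosen with earlier results of these data known, and many of them shift together from library to library. These counts therefore describe the members and are not a test of the group.

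**Figure D1:**
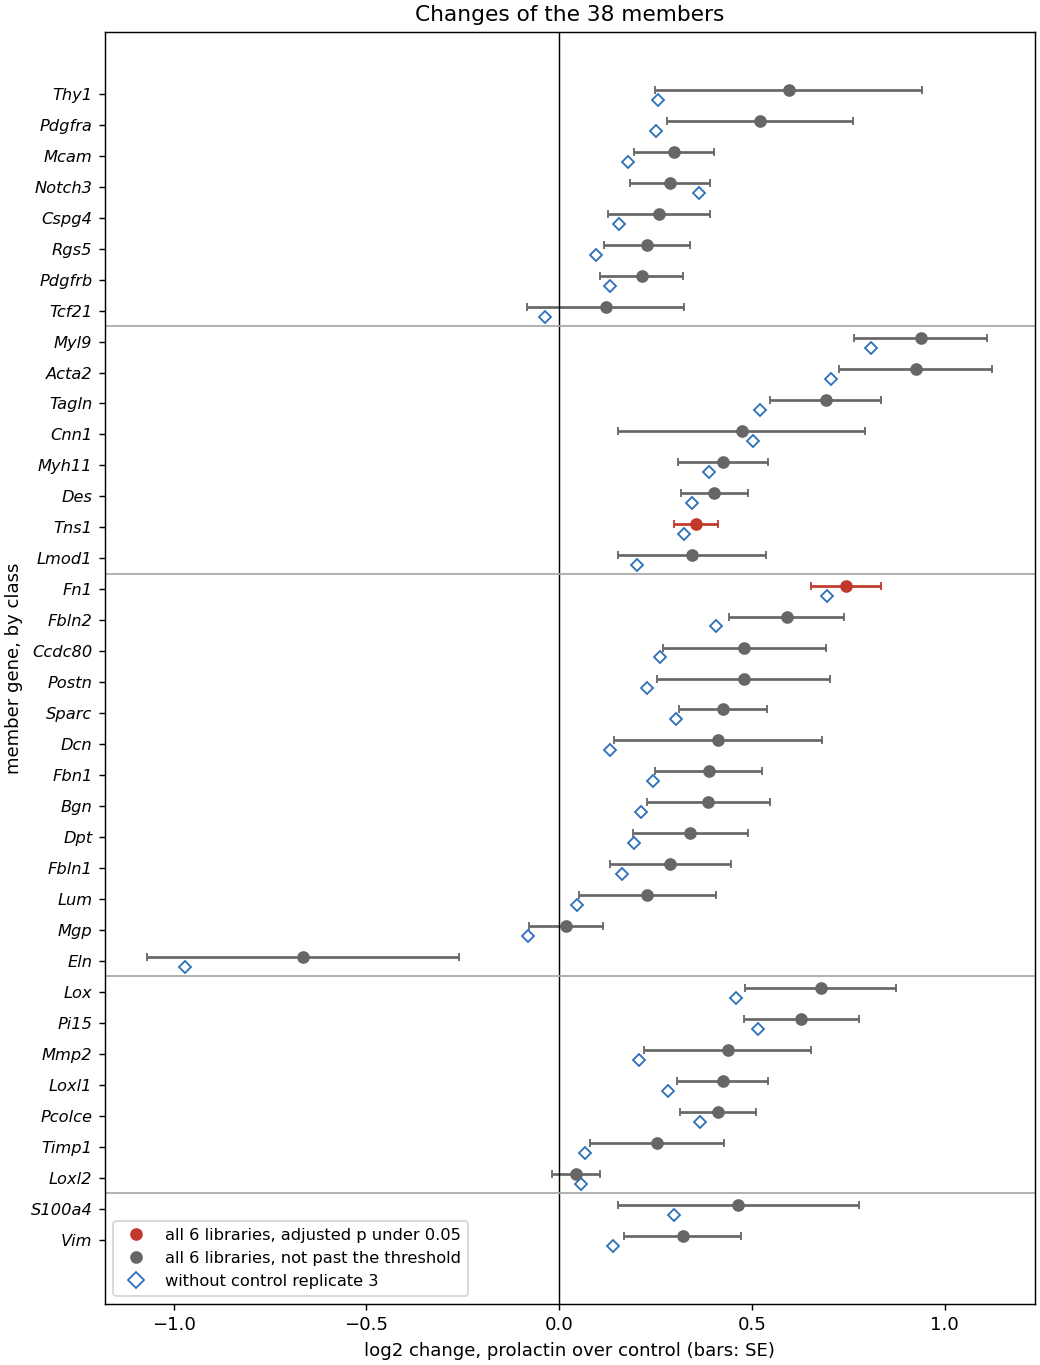
Log2 change of each of the 38 members, prolactin over control, with its SE (horizontal axis), grouped by class from identity genes at the top to cytoplasmic genes at the bottom. Red points passed the test, grey points did not, and open diamonds give the change without control replicate 3. Nearly all points lie right of 0, Eln is far to the left, and the diamonds of most matrix genes lie nearer to 0 than their points.

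Fibronectin, encoded by Fn1 (chromosome 1, 71585520 to 71653200, mm10), is a large glycoprotein of mesenchymal and endothelial cells to which cells attach through integrins, and it was the member with the smallest p. Fn1 stood at 78.6, 64.1 and 64.7 CPM in prolactin replicates 1, 2 and 3, against 40.6, 44.9 and 38.4 CPM in control replicates 1, 2 and 3. Every prolactin library exceeded every control library by a wide gap, and prolactin replicate 1 was the highest. The log2 change was 0.74 (SE 0.091, adjusted p = 0.00924), a 1.67-fold difference, and it passed whichever of the 6 libraries was left out (adjusted p from 0.013 to 0.0357). It also passed with prolactin replicates 2 and 3 averaged (adjusted p = 0.0314). An exon of Fn1 overlaps a gene model on the opposite strand, and reads there cannot be told apart.

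Tensin 1, encoded by Tns1 (chromosome 1, 73910231 to 74124449), ties integrin adhesions to actin filaments. Tns1 had 60.2, 54.3 and 56.8 CPM in prolactin replicates 1, 2 and 3, and 45.0, 46.2 and 42.8 CPM in control replicates 1, 2 and 3. The groups did not overlap and each was tight. Its log2 change of 0.36 (SE 0.058, adjusted p = 0.0325) was smaller than that of Fn1, with a smaller SE. Of the fits without 1 library, that without control replicate 3 kept the call (adjusted p = 0.0383), and the other 5 did not (adjusted p from 0.065 to 0.193). With prolactin replicates 2 and 3 averaged, the adjusted p of Tns1 was 0.172.

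**Figure D2:**
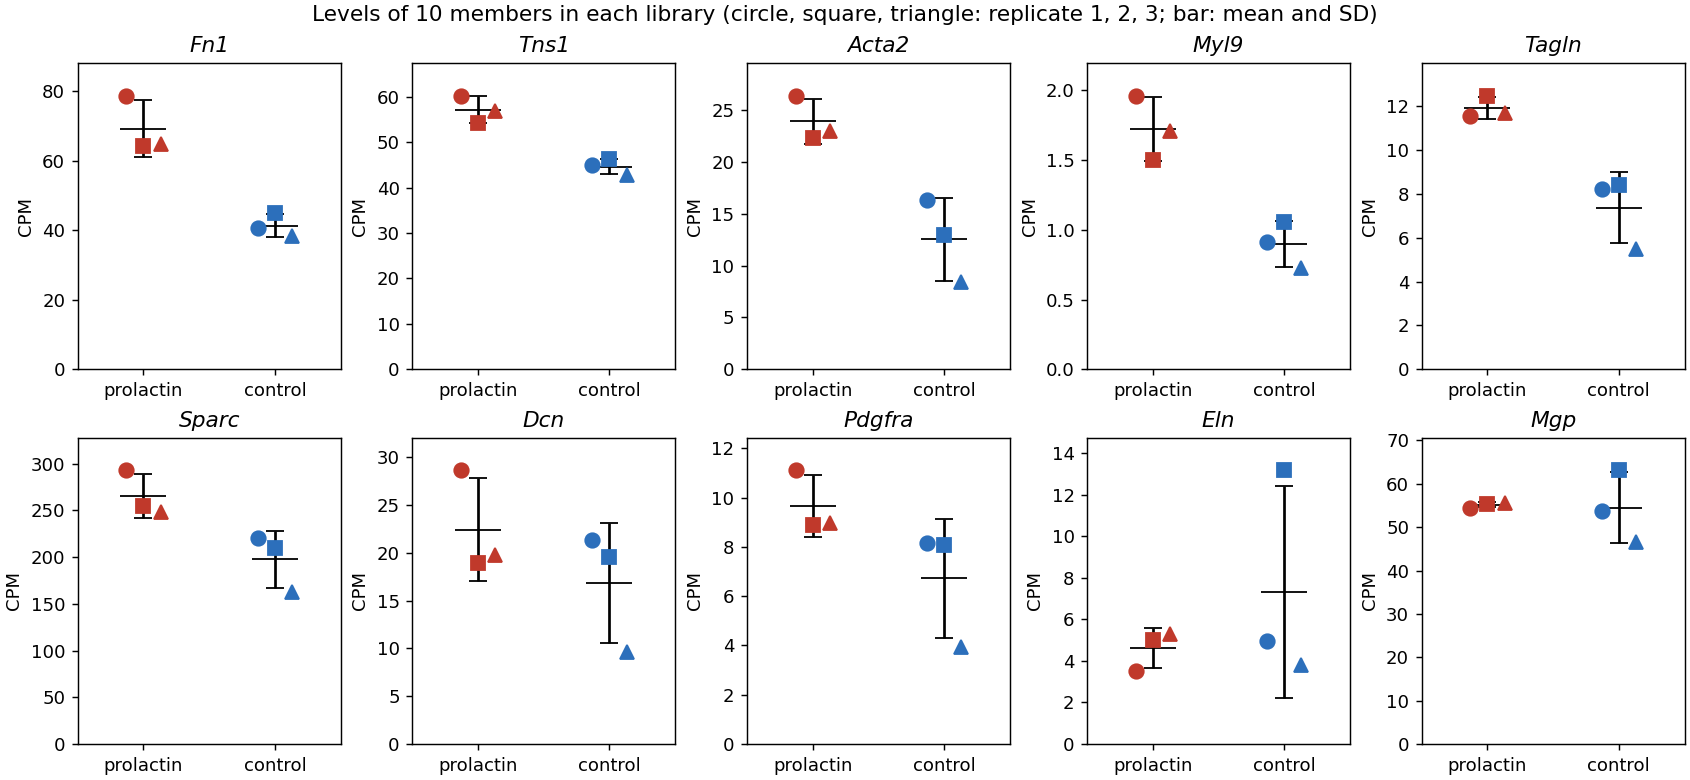
Level in CPM (vertical axis, from 0) of 10 members in the 3 prolactin libraries (red, left) and the 3 control libraries (blue, right) of each panel; circle, square and triangle are replicates 1, 2 and 3, and the bar is the mean with its SD. Fn1, Tns1, Acta2, Myl9 and Tagln have no overlap between the groups, control replicate 3 is lowest in Dcn and Pdgfra, control replicate 2 alone is high in Eln, and Mgp is level.

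The contractile class holds 8 genes. Most encode proteins of the actin and myosin machinery of smooth muscle, pericytes and activated stellate cells. The others are Des, for an intermediate filament, and Tns1, for an adhesion protein. In this class 1 gene, Tns1, rose, 8 of 8 had a log2 change above 0 and the median was 0.45. The prolactin libraries lay above the control libraries in 7 of 8, Cnn1 being the exception, a pattern that 11.3% of all genes showed. DESeq2 called 6 of them higher (Acta2, Tagln, Myh11, Myl9, Des and Tns1) and limma-voom 2 (Myl9 and Tns1). Over all genes, edgeR called 0.652% higher, DESeq2 4.10% and limma-voom 0.652%.

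Myl9, the regulatory light chain of smooth-muscle myosin (chromosome 2, 156775420 to 156781658), and Acta2 had the largest log2 changes of the 38. Myl9 stood at 1.96, 1.501 and 1.71 CPM in prolactin replicates 1, 2 and 3, against 0.914, 1.06 and 0.725 CPM in control replicates 1, 2 and 3. The groups were apart, at a low level. Its log2 change of 0.94 (SE 0.17) ended just short of the threshold (adjusted p = 0.051). It passed with upper-quartile scaling (adjusted p = 0.0487), with limma-voom (adjusted p = 0.0473) and without control replicate 3 (adjusted p = 0.0465), and with prolactin replicates 2 and 3 averaged it had an adjusted p of 0.184.

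Acta2, smooth-muscle alpha-actin and the usual sign of an activated stellate cell (chromosome 19, 34241090 to 34255336), had 26.3, 22.3 and 22.99 CPM in prolactin replicates 1, 2 and 3. In control replicates 1, 2 and 3 it had 16.3, 12.9 and 8.38 CPM. All prolactin libraries were higher, and the controls were scattered, with control replicate 3 lowest. The log2 change was 0.93 (SE 0.20, adjusted p = 0.0805), with adjusted p from 0.0363 without control replicate 1 to 0.242 without prolactin replicate 2.

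Tagln, the actin-binding protein transgelin, had 11.6, 12.5 and 11.7 CPM in prolactin replicates 1, 2 and 3, and 8.19, 8.40 and 5.49 CPM in control replicates 1, 2 and 3. Its groups did not overlap either, and the log2 change of 0.69 (SE 0.14) had an adjusted p of 0.0763, which became 0.0168 without control replicate 3. An exon of Tagln overlaps Pcsk7 on the opposite strand. Des, the intermediate filament desmin, had a mean of 7.72 ± 0.338 CPM in prolactin and 5.84 ± 0.514 CPM in control libraries (SD, n = 3 each; log2 change 0.40, adjusted p = 0.0816).

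Myh11, the heavy chain of smooth-muscle myosin, averaged 3.87 ± 0.423 CPM in prolactin and 2.88 ± 0.2497 CPM in control libraries (log2 change 0.43, adjusted p = 0.147). The remaining pair were scarce. Lmod1, leiomodin, which nucleates actin filaments, averaged 0.456 CPM in prolactin and 0.358 CPM in control, and Cnn1, calponin, 0.120 CPM in prolactin and 0.0854 CPM in control. The log2 change of Lmod1 was 0.34 (SE 0.19, adjusted p = 0.455) and that of Cnn1 0.47 (SE 0.32, adjusted p = 0.55).

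Many contractile genes are known to be driven by serum response factor, which binds a short element called the CArG box, and prolactin acts on transcription through STAT5, which binds TTCNNNGAA. RefSeq windows on GRCm38.p6 from 250 bases before to 50 bases after the start site were at hand for 23 of the 38 members, as 25 windows. A perfect CArG box lay in 1 of 6 contractile windows (Myl9), in 0 of the 19 other member windows and in 1.63% of all 32851 windows. A CArG box with 1 C or G in its A/T core lay in 2 contractile windows (Acta2 and Myl9), in 1 other member window (Fbln2) and in 8.50% of all windows. TTCNNNGAA lay in 2 of the 25 member windows (Dpt and Notch3) and in 8.30% of all windows. The 2 CArG patterns exclude each other, each motif covers both strands because its reverse complement is the same pattern, and a match is a description of the letters, not a bound site. The windows of the contractile genes with the largest changes, of Tns1 and of Fbln2 are printed 5′ to 3′ in gene orientation, with CArG boxes, perfect or with 1 C or G in the core, in capitals; the window of Tns1 has none.
Acta2 (minus strand, chr19:34255324-34255623): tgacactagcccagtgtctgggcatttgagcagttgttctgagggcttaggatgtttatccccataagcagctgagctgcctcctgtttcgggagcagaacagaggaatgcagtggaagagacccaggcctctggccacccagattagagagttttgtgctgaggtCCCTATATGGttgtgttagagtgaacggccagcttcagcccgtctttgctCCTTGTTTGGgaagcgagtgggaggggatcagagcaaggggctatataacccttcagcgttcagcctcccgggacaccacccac
Myl9 (plus strand, chr2:156775214-156775513): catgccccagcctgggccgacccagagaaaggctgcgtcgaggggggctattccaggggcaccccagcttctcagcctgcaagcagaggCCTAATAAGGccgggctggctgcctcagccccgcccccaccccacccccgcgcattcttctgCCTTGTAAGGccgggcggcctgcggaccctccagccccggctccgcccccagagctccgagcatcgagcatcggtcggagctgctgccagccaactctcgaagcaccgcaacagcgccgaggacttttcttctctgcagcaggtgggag
Tns1 (minus strand, chr1:74124499-74124798): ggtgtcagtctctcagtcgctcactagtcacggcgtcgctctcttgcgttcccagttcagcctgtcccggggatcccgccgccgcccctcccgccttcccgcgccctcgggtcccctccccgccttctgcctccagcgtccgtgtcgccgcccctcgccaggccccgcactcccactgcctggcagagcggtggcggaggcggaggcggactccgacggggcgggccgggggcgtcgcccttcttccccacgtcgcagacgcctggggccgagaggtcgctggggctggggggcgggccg
Fbln2 (plus strand, chr6:91212514-91212813): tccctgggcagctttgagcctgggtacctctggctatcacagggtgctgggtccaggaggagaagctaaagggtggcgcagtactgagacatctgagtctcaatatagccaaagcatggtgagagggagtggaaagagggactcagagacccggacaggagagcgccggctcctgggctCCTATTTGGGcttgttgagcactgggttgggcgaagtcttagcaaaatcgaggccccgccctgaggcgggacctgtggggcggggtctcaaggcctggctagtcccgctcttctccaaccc
Relative to the start site that RefSeq gives, the matches begin at -84 and -34 in Acta2, at -161 (the perfect one) and -99 in Myl9, and at -71 in Fbln2. The gene models used for counting start elsewhere: at 34255336 for Acta2, 74124449 for Tns1, 156775420 for Myl9 and 91212455 for Fbln2. The Tns1 window lies wholly upstream of its model. The offsets therefore hold for RefSeq's start sites only.

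The identity class holds 8 genes used to tell pericytes from fibroblasts. In edgeR 0 of the 8 passed, and DESeq2 and limma-voom called 0. With no adjustment 2 were higher and 0 lower at p under 0.05, against 7.78% and 6.68% of all genes. All 8 had a log2 change above 0, with a median of 0.27, and 4 had prolactin libraries above all control libraries, as had 11.3% of all genes.

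Among the pericyte genes, Pdgfrb, the receptor through which platelet-derived growth factor B recruits pericytes, had 73.9, 58.1 and 60.8 CPM in prolactin replicates 1, 2 and 3 and 62.0, 55.3 and 48.8 CPM in control replicates 1, 2 and 3. The groups overlapped, and the log2 change was 0.21 (SE 0.11, adjusted p = 0.405). Mcam, an adhesion protein of vessel walls also called CD146, had 35.8, 40.0 and 39.8 CPM in prolactin replicates 1, 2 and 3 and 33.2, 34.9 and 25.9 CPM in control replicates 1, 2 and 3 (log2 change 0.30, SE 0.10, adjusted p = 0.242). Its prolactin libraries lay above its controls by a narrow margin.

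Notch3, the Notch receptor of mural cells, was the 1 identity gene whose control replicate 3 was not the lowest library: it had 4.92, 4.32 and 4.80 CPM in prolactin replicates 1, 2 and 3 and 3.79, 3.48 and 4.23 CPM in control replicates 1, 2 and 3. Its log2 change was 0.29 (SE 0.10, adjusted p = 0.26). Rgs5, a regulator of G-protein signalling abundant in pericytes, averaged 14.2 ± 0.152 CPM in prolactin and 12.1 ± 2.01 CPM in control (log2 change 0.23, adjusted p = 0.392). Cspg4, the NG2 proteoglycan, averaged 29.2 ± 4.93 CPM in prolactin and 24.4 ± 3.66 CPM in control (log2 change 0.26, adjusted p = 0.416). Without control replicate 3 the log2 change was 0.10 for Rgs5, 0.16 for Cspg4, 0.18 for Mcam and 0.13 for Pdgfrb, each smaller than with it. That of Notch3 was larger, at 0.36 without control replicate 3 (adjusted p = 0.0843).

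Pdgfra, the platelet-derived growth factor receptor typical of fibroblasts, had 11.1, 8.90 and 8.98 CPM in prolactin replicates 1, 2 and 3 and 8.17, 8.06 and 3.92 CPM in control replicates 1, 2 and 3. The groups did not overlap, and control replicate 3 lay far below the other controls. The log2 change of 0.52 (SE 0.24, adjusted p = 0.368) was 0.25 without control replicate 3. Thy1, a surface glycoprotein of fibroblasts and neurons, had 7.42, 12.04 and 12.2 CPM in prolactin replicates 1, 2 and 3 and 7.91, 9.77 and 3.24 CPM in control replicates 1, 2 and 3. Prolactin replicate 1 lay below 2 of the controls, and the log2 change of 0.60 (SE 0.35, adjusted p = 0.477) was 0.26 without control replicate 3. Tcf21, a transcription factor of fibroblast precursors, was at most 1.02 CPM in every library (log2 change 0.12, adjusted p = 0.832; -0.04 without control replicate 3).

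The structural matrix class holds 13 secreted proteins, of which 1, Fn1, rose and 12 did not pass, with 12 of 13 log2 changes above 0 and a median of 0.39. DESeq2 called 4 of them higher (Sparc, Fbln2, Fbn1 and Fn1) and limma-voom Fn1. The shares of all genes called higher were 0.652% in edgeR, 4.10% in DESeq2 and 0.652% in limma-voom. Levels between genes are compared here per kilobase of exon. On that scale Sparc was the most abundant of the 38 members, at 78.8 CPM per kb in prolactin and 58.6 CPM per kb in control libraries. Vim stood at 48.5 CPM per kb in prolactin and 38.9 in control, and Mgp at 46.5 in prolactin and 45.9 in control. The least abundant was Cnn1, at 0.0506 CPM per kb in prolactin and 0.0361 CPM per kb in control.

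Sparc, a collagen-binding matricellular protein, had 293, 254 and 249 CPM in prolactin replicates 1, 2 and 3 and 221, 209 and 162 CPM in control replicates 1, 2 and 3. The groups did not overlap, and the log2 change was 0.43 (SE 0.11, adjusted p = 0.145). Fbln2, the elastic-fibre protein fibulin 2, had 44.1, 42.0 and 43.9 CPM in prolactin replicates 1, 2 and 3 and 30.8, 34.6 and 21.02 CPM in control replicates 1, 2 and 3. Its prolactin libraries lay close together while its controls were scattered (log2 change 0.59, SE 0.15, adjusted p = 0.127; 0.41 with adjusted p = 0.031 without control replicate 3).

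Biglycan and decorin are related proteoglycans that bind collagen and growth factors. Bgn had 127, 103 and 102 CPM in prolactin replicates 1, 2 and 3 and 102, 89.4 and 63.0 CPM in control replicates 1, 2 and 3 (log2 change 0.39, SE 0.16, adjusted p = 0.312; 0.21 without control replicate 3). The highest control nearly met the lowest prolactin library. Dcn had 28.6, 18.9 and 19.7 CPM in prolactin replicates 1, 2 and 3 and 21.3, 19.6 and 9.61 CPM in control replicates 1, 2 and 3, so the groups overlapped. Its log2 change of 0.41 (SE 0.27, adjusted p = 0.537) was 0.13 without control replicate 3. The related proteoglycan Lum differed less, with a log2 change of 0.23 that was 0.05 without control replicate 3.

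The fibrillin gene Fbn1, which encodes the core of the microfibrils that carry elastin, averaged 77.4 ± 10.3 CPM in prolactin and 59.2 ± 11.2 CPM in control (log2 change 0.39, adjusted p = 0.253; 0.24 without control replicate 3). Elastin itself, Eln (chromosome 5, 134702593 to 134747323), was the 1 member with a log2 change below 0. Eln had 3.51, 5.001 and 5.30 CPM in prolactin replicates 1, 2 and 3 and 4.98, 13.2 and 3.78 CPM in control replicates 1, 2 and 3. Control replicate 2 alone was high, and the other 5 libraries lay between 3.51 and 5.30 CPM. The log2 change of -0.66 (SE 0.40, adjusted p = 0.50) was -0.97 without control replicate 3 and 0.07 without control replicate 2.

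Mgp, matrix Gla protein, which inhibits calcification, was level between the conditions. It had 54.5, 55.4 and 55.5 CPM in prolactin replicates 1, 2 and 3 and 53.7, 63.1 and 46.6 CPM in control replicates 1, 2 and 3, with a log2 change of 0.02 and a range of -0.17 to 0.21 within 2 SE. Its prolactin libraries were close together, inside the range of the controls. For Postn, which encodes the collagen-binding protein periostin, the log2 change was 0.48 (adjusted p = 0.376), and for the secreted protein gene Ccdc80 it was also 0.48 (adjusted p = 0.346); without control replicate 3 it was 0.23 for Postn and 0.26 for Ccdc80. Dpt, which encodes dermatopontin, differed by 0.34 (adjusted p = 0.341) and the fibulin gene Fbln1 by 0.29 (adjusted p = 0.444), against 0.19 and 0.16 without control replicate 3.

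Among 7 genes for enzymes that process matrix and for their inhibitors, 0 passed in edgeR. With no adjustment 4 had p under 0.05, all higher, against 7.78% of all genes higher at that level. DESeq2 called 3 higher (Loxl1, Pcolce and Pi15), against 4.10% of all genes, and limma-voom 0. All 7 log2 changes were above 0, with a median of 0.42. The lysyl oxidases cross-link collagen and elastin, and their 3 genes differed in size of change. Lox had 22.2, 17.2 and 17.6 CPM in prolactin replicates 1, 2 and 3 and 13.9, 13.7 and 7.93 CPM in control replicates 1, 2 and 3 (log2 change 0.68, SE 0.20, adjusted p = 0.168). Without control replicate 3 the log2 change of Lox was 0.46 (adjusted p = 0.0734). Loxl1 had 16.4, 16.0 and 15.7 CPM in prolactin replicates 1, 2 and 3 and 13.2, 13.2 and 9.47 CPM in control replicates 1, 2 and 3 (log2 change 0.42, SE 0.12, adjusted p = 0.156; 0.28 with adjusted p = 0.0454 without control replicate 3). In both, every prolactin library exceeded every control.

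Loxl2 was at 20.3, 19.1 and 19.3 CPM in prolactin replicates 1, 2 and 3 and 17.8, 19.8 and 19.3 CPM in control replicates 1, 2 and 3, with a log2 change of 0.04 and a range of -0.08 to 0.17 within 2 SE. Its groups overlapped, and its log2 change was 0.06 without control replicate 3. The differences between the changes of the 3 lysyl oxidase genes were not tested. Pcolce, which speeds the trimming of procollagen, had 7.21, 6.44 and 5.96 CPM in prolactin replicates 1, 2 and 3 and 5.28, 4.87 and 4.58 CPM in control replicates 1, 2 and 3 (log2 change 0.41, SE 0.099, adjusted p = 0.106). Pi15, a secreted peptidase inhibitor, had 7.31, 5.28 and 5.67 CPM in prolactin replicates 1, 2 and 3 and 4.39, 4.12 and 3.29 CPM in control replicates 1, 2 and 3 (log2 change 0.63, SE 0.15, adjusted p = 0.105). Both were separated between the groups.

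The gelatinase Mmp2 and the metalloproteinase inhibitor Timp1 were not separated. Mmp2 had 34.0, 25.3 and 23.8 CPM in prolactin replicates 1, 2 and 3 and 24.5, 23.4 and 13.4 CPM in control replicates 1, 2 and 3 (log2 change 0.44, SE 0.22, adjusted p = 0.399). Timp1 had 38.6, 30.5 and 28.9 CPM in prolactin replicates 1, 2 and 3 and 32.5, 29.8 and 19.8 CPM in control replicates 1, 2 and 3 (log2 change 0.25, SE 0.17, adjusted p = 0.558). Without control replicate 3 their log2 changes were 0.21 and 0.07.

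Of the remaining pair, 0 passed in edgeR, 0 had p under 0.05 with no adjustment, and DESeq2 and limma-voom called 0. Vim, the intermediate filament vimentin of mesenchymal, endothelial and immune cells, had 250.5, 215 and 225 CPM in prolactin replicates 1, 2 and 3 and 215, 202 and 135 CPM in control replicates 1, 2 and 3 (log2 change 0.32, SE 0.15, adjusted p = 0.379; 0.14 without control replicate 3). S100a4, a calcium-binding protein once used as a fibroblast marker, was scarce, at 0.255, 0.211 and 0.128 CPM in prolactin replicates 1, 2 and 3 and 0.168, 0.151 and 0.105 CPM in control replicates 1, 2 and 3 (log2 change 0.46, SE 0.31, adjusted p = 0.548; 0.30 without control replicate 3).

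Control replicate 3 was the lowest of the 6 libraries in 33 of 38 members, a position it held in 22.7% of all genes tested, and prolactin replicate 1 was the highest in 30, against 20.0%. In mean log2 CPM, control replicate 3 lay 0.55 below the mean of the 6 libraries for structural matrix genes, 0.50 for enzymes and inhibitors, 0.48 for identity genes and 0.40 for contractile genes. Control replicates 1 and 2 lay 0.11 and 0.17 below it for contractile genes, and for structural matrix genes control replicate 1 lay 0.03 below and control replicate 2 lay 0.08 above. The contractile genes were thus under the mean in all 3 controls, and the structural matrix genes in 2. The structural mean of control replicate 2 includes Eln, which stood at 13.2 CPM there and at most at 5.30 CPM in the other libraries. The 0.5 CPM added to each level also shrinks the deviations of low-level contractile genes.

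**Figure D3:**
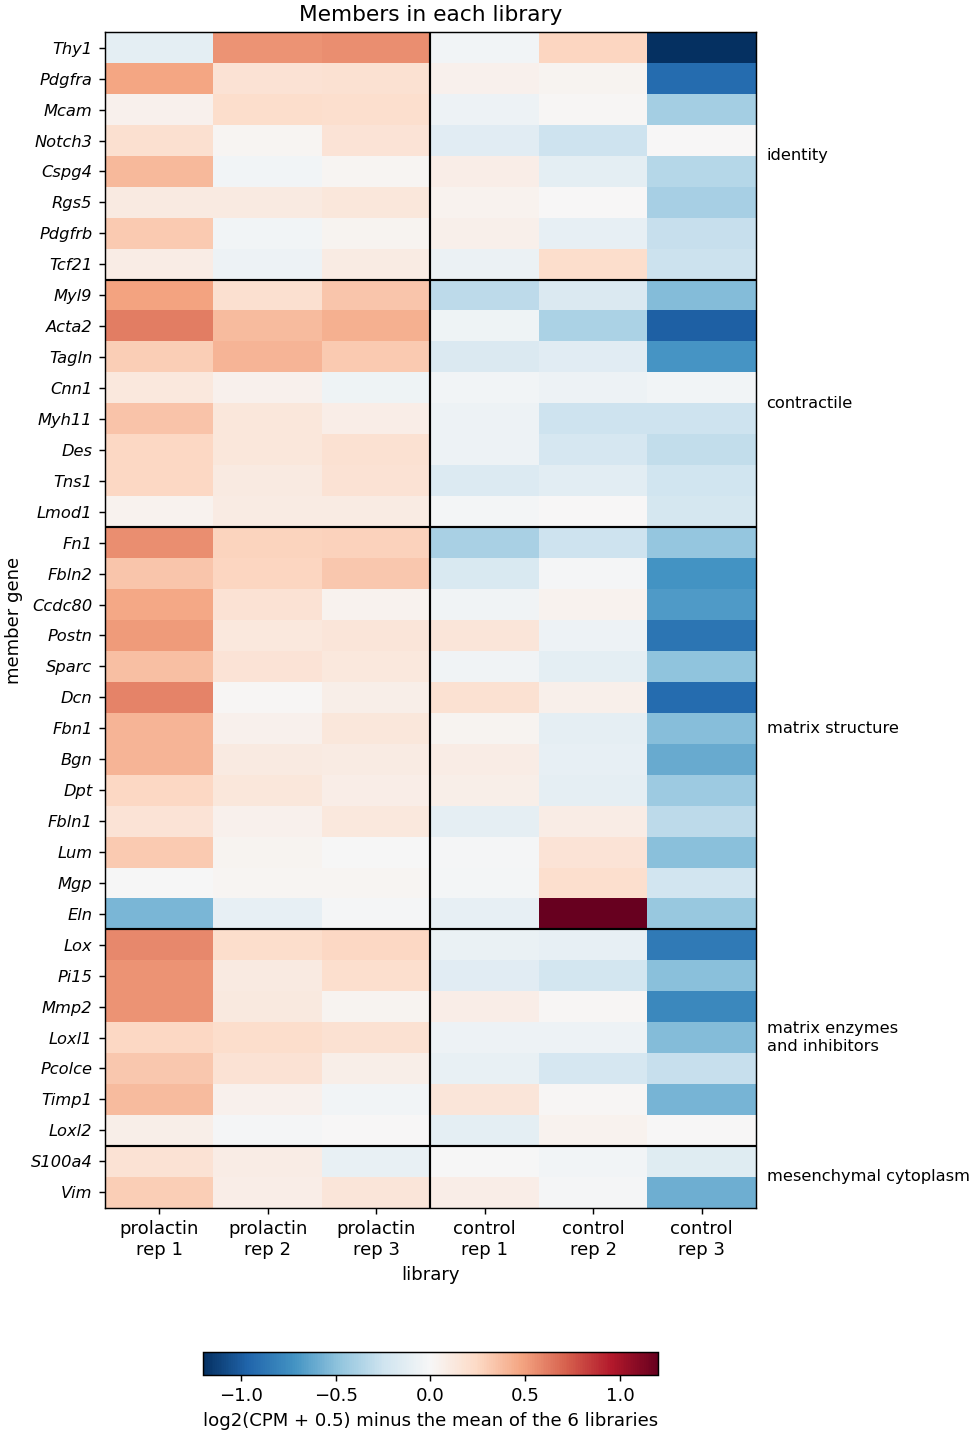
Level of each of the 38 members (rows, by class) in each library (columns, prolactin left of control), as log2(CPM + 0.5) minus the gene's mean over the 6 libraries; red is above and blue below that mean. Control replicate 3 is blue in most rows, prolactin replicate 1 is the reddest column, and the Eln row is red in control replicate 2.

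The low values of control replicate 3 were uneven across genes. Set against the mean of control replicates 1 and 2, it was lowest in Thy1 (-1.31 on the log2 scale), Dcn (-1.05), Eln (-1.02), Pdgfra (-0.96), Postn (-0.92) and Mmp2 (-0.82). It was nearer for Pdgfrb (-0.26), Des (-0.16), Fn1 (-0.15), Tns1 (-0.09) and Myh11 (-0.09), and above that mean for Cnn1 (0.02), Loxl2 (0.04) and Notch3 (0.19). For Eln the mean includes control replicate 2 at 13.2 CPM, while control replicate 3 had 3.78 CPM and control replicate 1 4.98 CPM. The lowest library of Eln was prolactin replicate 1, at 3.51 CPM. The median of these log2 differences was -0.58 over structural matrix genes and -0.18 over contractile genes. The added 0.5 CPM pulls them towards 0 in low-level genes, among them the contractile Cnn1, Lmod1 and Myl9. The 2 medians are therefore not on an equal footing.

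Leaving control replicate 3 out reduced the median log2 change of the members to 0.25, with 35 of 38 above 0, while 7 members passed the test upwards and 0 downwards (1.40% and 0.957% of all genes tested did so without that library). These were the contractile genes Acta2, Tagln, Myl9 and Tns1, the structural matrix genes Fbln2 and Fn1, and Loxl1. The log2 change was lower without the library in 35 of 38 members. Among contractile genes it was lower in 7 of 8 (Acta2 0.70, Tagln 0.52, Myl9 0.81 and Lmod1 0.20 without it), although their median stood at 0.45 in both fits. The exception was the scarce Cnn1 (0.47 with the library and 0.50 without it), which lies in the middle of the class and so helps to hold that median. The median of structural matrix genes was 0.21 without the library, against 0.39 with it. That of identity genes was 0.17 without it, against 0.27 with it.

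Within each library, the mean log2 CPM of contractile genes minus that of structural matrix genes was -2.16, -2.08 and -2.09 in prolactin replicates 1, 2 and 3 and -2.25, -2.41 and -2.02 in control replicates 1, 2 and 3. The contrast is a difference of levels that are not scaled by length, so only its spread across libraries is read. The 0.5 CPM added to each level shrinks differences of low-level genes. Among them are the contractile Cnn1, Lmod1 and Myl9, which averaged 0.103, 0.407 and 1.31 CPM over the 6 libraries. The contrast can thus understate a change of the contractile class. Eln, high in control replicate 2 alone, lowers the contrast of that library. The mean contrast was -2.11 ± 0.04 in prolactin and -2.23 ± 0.20 in control (SD, n = 3 each). The 0.12 between the conditions lies within the 0.40 that the control libraries spanned. That difference was 0.22 without control replicate 3 and 0.03 without control replicate 2. Identity minus structural matrix genes stood at -0.96, -0.83 and -0.79 in prolactin replicates 1, 2 and 3 and at -0.83, -0.92 and -0.77 in control replicates 1, 2 and 3, with no difference beyond the spread (-0.02).

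**Figure D4:**
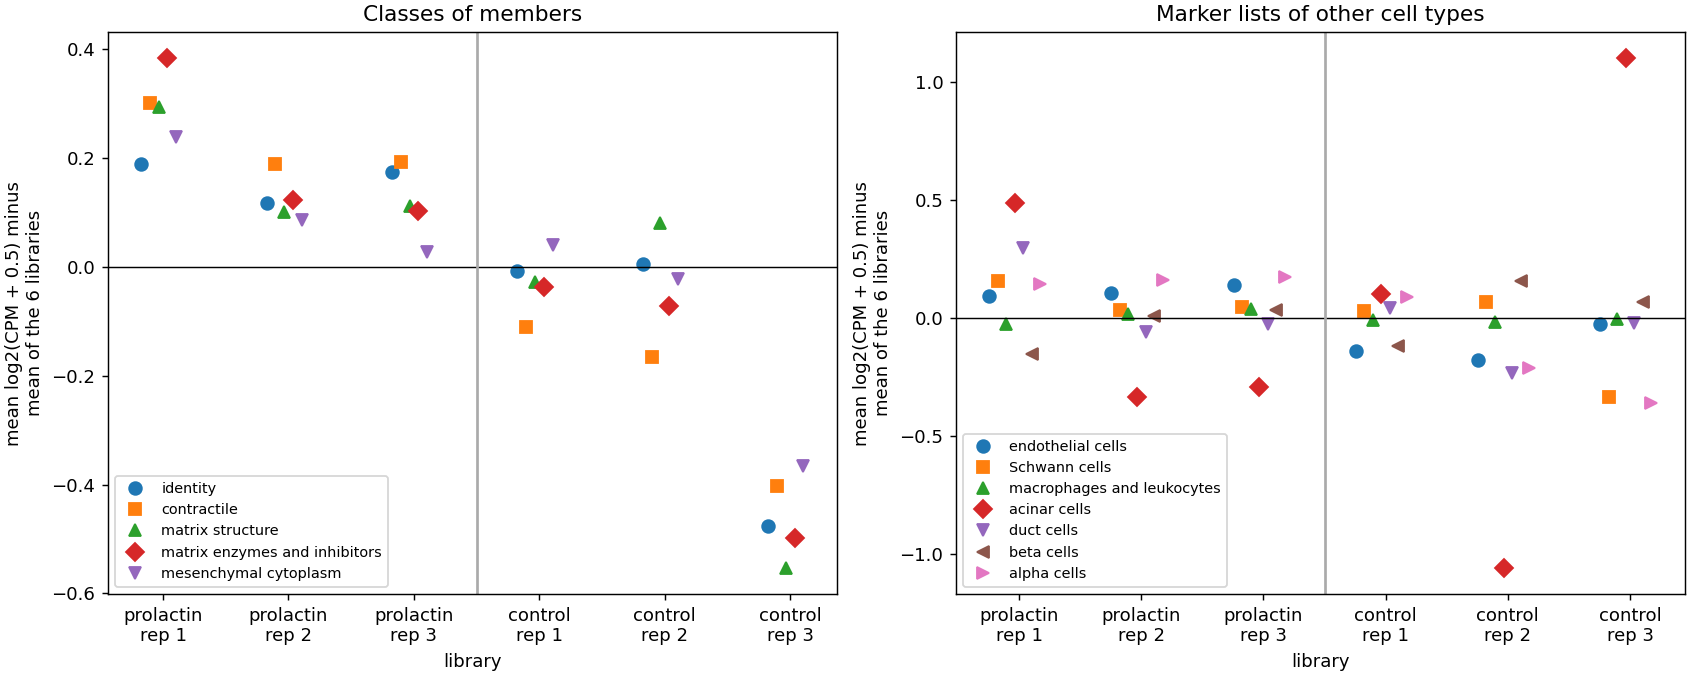
Mean log2(CPM + 0.5) of each class of members (left) and of marker lists of other cell types (right), as the distance from the mean of the 6 libraries (vertical axis; the scales of the panels differ), in each library (horizontal axis, prolactin left of control). All 5 classes are above 0 in the prolactin libraries and lowest in control replicate 3, while acinar markers are highest in control replicate 3 and lowest in control replicate 2.

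Markers of other cells moved between the same libraries. Acinar markers, which report the digestive-enzyme cells around islets, summed to 964 to 2073 CPM in prolactin and 594 to 3118 CPM in control libraries, highest in control replicate 3 and lowest in control replicate 2. Schwann-cell markers summed to 65.0 to 69.7 CPM in prolactin and 50.7 to 64.1 CPM in control, with control replicate 3 lowest, as for the members. Alpha-cell markers summed to 34923 to 36278 CPM in prolactin and 23309 to 37278 CPM in control, also lowest in control replicate 3. Endothelial markers summed to 451 to 464 CPM in prolactin and 387 to 445 CPM in control, and there control replicate 3 was the highest control. All 12 had a log2 change above 0, with a median of 0.16, or 0.24 without control replicate 3. In that fit 5 passed, where 1.40% of all genes passed upwards and 0.957% downwards. Duct markers summed to 1284 to 1823 CPM in prolactin and 1019 to 1579 CPM in control, and those of macrophages and leukocytes to 117 to 126 CPM in prolactin and 117 to 121 CPM in control. Of 6 mesothelial markers 2 were tested, summing to 41.5 to 61.1 CPM in prolactin and 46.4 to 66.6 CPM in control. In these lists and that of beta cells, 0 markers were without a read in every library. Vwf among 12 endothelial markers rose in edgeR and DESeq2, and it passed in limma-voom and without control replicate 3. Its fit with prolactin replicates 2 and 3 averaged is not given here. In edgeR 0 of 56 tested markers of the beta-cell, Schwann-cell, acinar, duct, mesothelial and leukocyte lists passed. With no adjustment 6 were higher and 2 lower at p under 0.05, against 7.78% and 6.68% of all genes. DESeq2 called 3 higher, against 4.10% of all genes, and limma-voom 0. The part of these cells in the results was not tested.

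Further genes of the pathways and cell types above were taken from 4 lists, not all of them restricted to mesenchymal cells. Of 77 tested, 3 rose and 0 fell, where 0.652% of all genes rose and 0.104% fell. With no adjustment 31 had p under 0.05, all higher, against 7.78% of all genes higher and 6.68% lower. DESeq2 called 22 higher and limma-voom 3, against 4.10% and 0.652% of all genes. The log2 change was above 0 in 65, as in 50.1% of all genes, and the median was 0.26 (0.15 without control replicate 3). The 15 tested genes of the pericyte and stellate list had a median log2 change of 0.12, or 0.03 without control replicate 3, with 10 above 0. Of these, Pdgfb rose; it encodes the ligand of Pdgfrb and is known as a product of endothelial cells rather than of pericytes. Pdgfb had 33.9, 35.6 and 34.7 CPM in prolactin replicates 1, 2 and 3 and 27.6, 28.6 and 27.6 CPM in control replicates 1, 2 and 3 (log2 change 0.31, SE 0.049, adjusted p = 0.0301). Its groups were tight and apart, although of the fits without 1 library only that without control replicate 3 passed (adjusted p = 0.0321, and 0.0643 to 0.215 in the others). Edn1, the vasoconstrictor endothelin 1, also mainly endothelial, differed by 0.58 in log2 (adjusted p = 0.0535), and the pericyte potassium-channel subunit Abcc9 by 0.35 (adjusted p = 0.205). The 5 with a log2 change below 0, named after their values were seen, were Lrat, the retinol esterase of stellate cells (-1.22, SE 0.87, at most 0.425 CPM), Steap4 (-0.37), Gfap (-0.21), the angiopoietin gene Angpt1 (-0.18) and Pdgfa, a ligand of Pdgfra (-0.085). Pdgfa had 53.2, 53.9 and 51.4 CPM in prolactin replicates 1, 2 and 3 and 54.2, 57.8 and 56.2 CPM in control replicates 1, 2 and 3, every prolactin library below every control (adjusted p = 0.482).

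In the list of 30 further fibroblast and matrix genes, Thbs1 and Ltbp2 rose and 28 did not pass, where 0.652% of all genes rose. Thbs1, thrombospondin 1, a matricellular activator of TGF-beta made by several cell types, had 148, 139 and 136 CPM in prolactin replicates 1, 2 and 3 and 111, 94.8 and 109 CPM in control replicates 1, 2 and 3 (log2 change 0.43, SE 0.071, adjusted p = 0.0343). Ltbp2, a protein of microfibrils, had 27.9, 27.4 and 27.7 CPM in prolactin replicates 1, 2 and 3 and 18.6, 21.2 and 15.8 CPM in control replicates 1, 2 and 3 (log2 change 0.58, SE 0.095, adjusted p = 0.0346). Both were separated between the groups. Thbs1 passed without control replicate 1 or 3 and Ltbp2 without control replicate 2 or 3, and in the other fits without 1 library adjusted p was 0.0863 to 0.177 for Thbs1 and 0.0809 to 0.177 for Ltbp2. With prolactin replicates 2 and 3 averaged, adjusted p was 0.207 for Pdgfb, 0.177 for Thbs1 and 0.18 for Ltbp2. Igfbp5, an insulin-like growth factor binding protein, had a log2 change of 0.48 (adjusted p = 0.0548).

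Among 16 further smooth-muscle genes 0 passed in edgeR. With no adjustment 9 had p under 0.05, all higher, against 7.78% of all genes higher at that level. DESeq2 called 5 higher, against 4.10% of all genes, and limma-voom 0. The tropomyosin gene Tpm2 had 11.6, 9.67 and 9.86 CPM in prolactin replicates 1, 2 and 3 and 7.37, 6.86 and 5.02 CPM in control replicates 1, 2 and 3, without overlap (log2 change 0.69, SE 0.14, adjusted p = 0.069). For Cnn2, a calponin of non-muscle cells, the log2 change was 0.64 (adjusted p = 0.134), and for smoothelin, Smtn, 0.32 (adjusted p = 0.147). Among 16 tested mesenchymal transcription factors and coactivators 0 passed in edgeR. With no adjustment 4 had p under 0.05, all higher, again against 7.78% of all genes. DESeq2 called 3 higher, against 4.10% of all genes, and limma-voom 0. The log2 change was 0.26 for the homeobox gene Meox1 (adjusted p = 0.15), 0.21 for Mkl2, a coactivator of serum response factor (adjusted p = 0.173), and 0.41 for Snai1, a repressor of epithelial genes (adjusted p = 0.21).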

How the data were processed

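Each deposited count is a whole number of reads for a gene name. Per the file headers, the authors counted with featureCounts 2.0.3 on GENCODE vM10 models. No strand option was set, and 12 of the 38 members share an exon with another gene model, 8 of them on the opposite strand only; such reads cannot be told apart. Per the submitters' processing notes, mm10, SAMtools 1.21, Subread 2.1.0 and DESeq2 were used; no source used here gives the aligner. Even numbers were in surplus among low counts (53.9% to 56.3%), so mates of a pair may be counted separately.

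Differences were tested by edgeR's quasi-likelihood method (edgeR 4.0.16, R 4.3.3) after filterByExpr, with a minimum count of 10 and total of 15, and TMM scaling. Condition was the single term, tests were two-sided and p-values Benjamini-Hochberg adjusted over all genes; SEs derive from the test statistic. The filter kept 23924 genes. Levels on a log2 scale have 0.5 CPM added. DESeq2 1.42.0 and limma-voom 3.58.1 were alternatives, beside other scalings, other filters, halved counts, an average of prolactin replicates 2 and 3, the replicate number as a block and leaving out each library. The test was checked on simulated counts.

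The members and lists were chosen with earlier results of these data known. Values are given in full for members past the threshold, and per class for the 3 smallest p-values and the 3 highest levels per kb. Of the other mesenchymal lists, values are in full for genes past the threshold. The 3 genes with the smallest p-values per list have at least a log2 change and an adjusted p. Other members with values per library, among them Dcn, Lox, Loxl2 and Eln, were chosen after their values were seen. Promoter windows are RefSeq's. The authors' table of their own comparison was not used here. The test of single alpha-cell markers is not reported here.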

Additional observations from a re-analysis of the deposited data

How the results depend on the processing

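The 38 members kept a count of 2 to 3 higher, and the median log2 change stayed within the spread between replicates, under the other scalings, the filter of 1 CPM in 3 libraries, halved counts and limma-voom. The count of members higher was 12 with no filter, 13 with DESeq2, 14 with the replicate block and 1 with prolactin replicates 2 and 3 averaged, and 1 to 7 over the fits without 1 library; 0 were lower in any fit. Over all genes the count of higher and lower genes was 470 and 127 with no filter, 776 and 303 with DESeq2, 464 and 134 with the block, and 41 and 2 with the 2 libraries averaged, and 46 were lower under the 1 CPM filter. Without 1 library these counts ranged from 39 to 342 and from 1 to 234. The averaged fit and those without 1 library hold 5 samples; for the other settings the cause was not tested. Deviations of same-numbered libraries correlated by 0.544, 0.326 and 0.0908, and prolactin replicate 3 correlated best with control replicate 2 (0.351). Prolactin replicate 1 correlated by -0.382 with control replicate 2 and by -0.104 with control replicate 3, below its 0.544 with control replicate 1. Prolactin replicates 2 and 3 are so alike that the correlations cannot show whether the numbers 2 and 3 pair samples. Whether libraries numbered 1 share a source was not tested. The median log2 change of the members was 0.25 to 0.50 without 1 library, lowest without control replicate 3, and the contractile minus matrix difference 0.03 to 0.22. The log2 change of Mgp ranged from -0.082 without control replicate 3 to 0.13 without control replicate 2. Cnn1 and S100a4, at under 0.3 CPM, had SEs of 0.32 and 0.31, against a median SE of 0.0672 over genes of at least 5 CPM.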
